A study of Mus musculus with 2 samples.

Results

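The stretch of mouse chromosome 2 described here, from 85.3 to 89.9 Mb in the mm8 build, lies inside the large olfactory receptor (Olfr) gene cluster. Below, "the cluster" means this stretch. It was set by its position and not by its read counts, though earlier results of these data were known when it was chosen. It holds 4600 of the 2630648 1-kb bins on chromosomes 1 to 19, X and Y. The position and the name of the cluster come from outside the files, which hold aligned reads and no gene annotation. Reads came from 1 library of DNA recovered by chromatin immunoprecipitation (ChIP) of CTCF and 1 library of whole-cell extract, the input chromatin before precipitation. Both were made from V6.5 cells, a male mouse embryonic stem cell line of genotype 129SvJaexC57BL/6, at passages 10–15. The cells were grown on irradiated feeder fibroblasts (MEFs) and then passaged on gelatin to remove these. No treatment is named. Sequencing gave 2371134 ChIP reads, and 4691104 extract reads from 2 lanes. With 1 library per group nothing could be checked between replicates, so the intervals below are exact 95% intervals that cover counting error only.

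CTCF is a zinc-finger protein that binds DNA at a great many places, where it blocks enhancers and, together with cohesin, stops the extrusion of chromatin loops. Olfactory receptors are odour-sensing G-protein-coupled receptors. Their genes form long tandem arrays, and each sensory neuron of the nose expresses a single one of them. Outside these neurons, including in embryonic stem cells, the arrays are largely silent. In RefSeq's gene table for another build, GRCm38.p6, 293 Olfr genes lie between Lrrc55 and Ptprj on chromosome 2, from Olfr987 to Olfr1274, and 71 of them are listed as pseudogenes. The protein-coding genes of other kinds within that run are Fads2b, named as a fatty acid desaturase, and Pramel6 and Pramel7, members of the Prame family expressed in early embryos. No gene was placed on the mm8 positions of the reads, because the builds differ.

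The stretches annotated as promoters of these Olfr genes are poor in G and C. RefSeq's promoter table (GRCm38.p6, 250 bases before to 50 after each annotated start) had an entry for 186 of the 293 Olfr genes. Their 187 promoters had a median of 32.0% G and C (25th to 75th percentile 29.3 to 34.5), against 52.7% (45.7 to 61.7) over all 32851 promoters in the table. The 5-letter word CCCTC, after which CTCF is named and which is part of its binding motif, was searched on both strands. It was present in 27 of the 187 Olfr promoters (14.4%) and in 65.95% of all promoters. A match to so short a word is no binding site, and the word is expected less often in sequence poor in G and C. The first and the last of the Olfr genes with an entry are shown to let the composition be read, with CCCTC in capitals. The first has 38% G and C and no CCCTC, and the last, on the plus strand, has 40.7% and 1 match. Both lie above the 75th percentile of the Olfr promoters in G and C and are in that respect not typical of the set. The last 50 bases of the Olfr988 stretch begin with ATG, a start codon, so its annotated start may be that of the coding sequence. Whether the annotated starts of the other Olfr genes begin transcripts was not checked.
Olfr988 (minus strand): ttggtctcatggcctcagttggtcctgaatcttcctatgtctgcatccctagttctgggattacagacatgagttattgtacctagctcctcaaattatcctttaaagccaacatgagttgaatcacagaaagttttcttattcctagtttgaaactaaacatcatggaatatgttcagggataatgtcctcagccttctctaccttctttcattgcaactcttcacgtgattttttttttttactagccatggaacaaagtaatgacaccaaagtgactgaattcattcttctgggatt
Olfr1274 (plus strand): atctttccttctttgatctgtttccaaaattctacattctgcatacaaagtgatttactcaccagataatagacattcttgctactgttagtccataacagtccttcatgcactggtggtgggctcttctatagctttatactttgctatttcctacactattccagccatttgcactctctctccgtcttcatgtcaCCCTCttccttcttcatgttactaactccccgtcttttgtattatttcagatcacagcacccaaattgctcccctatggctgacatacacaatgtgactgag

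The cluster was nearly free of strong CTCF signal. Each read was moved towards its 3′ end by 51% of the fragment length of 200 bp, which came from the cross-correlation of the strands, to stand for the middle of its DNA fragment. It was then counted in 1-kb bins. A bin with 10 or more ChIP reads is called strong here. The cluster held 2 strong bins (95% interval 0.242 to 7.22), or 0.435 per Mb, which is 0.0435% of its bins. Over all of chromosome 2, 1.31% of bins were strong. The comparison was with the rest of chromosome 2 cut into windows of the same 4.6 Mb, of which 35 were kept. These windows held a median of 46 strong bins, with a lowest count of 2 and a highest of 183. In 34 of the 35 the count was above that of the cluster, and in the other it was equal.

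Pooled, the 35 windows held 2135 strong bins. Per Mb, the cluster reached 0.0328 times their density (95% interval 0.00397 to 0.119), so the windows were 30.5 times denser (8.43 to 252). This difference is far larger than counting error, although neighbouring bins can share a site and are not independent.

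**Figure D1:**
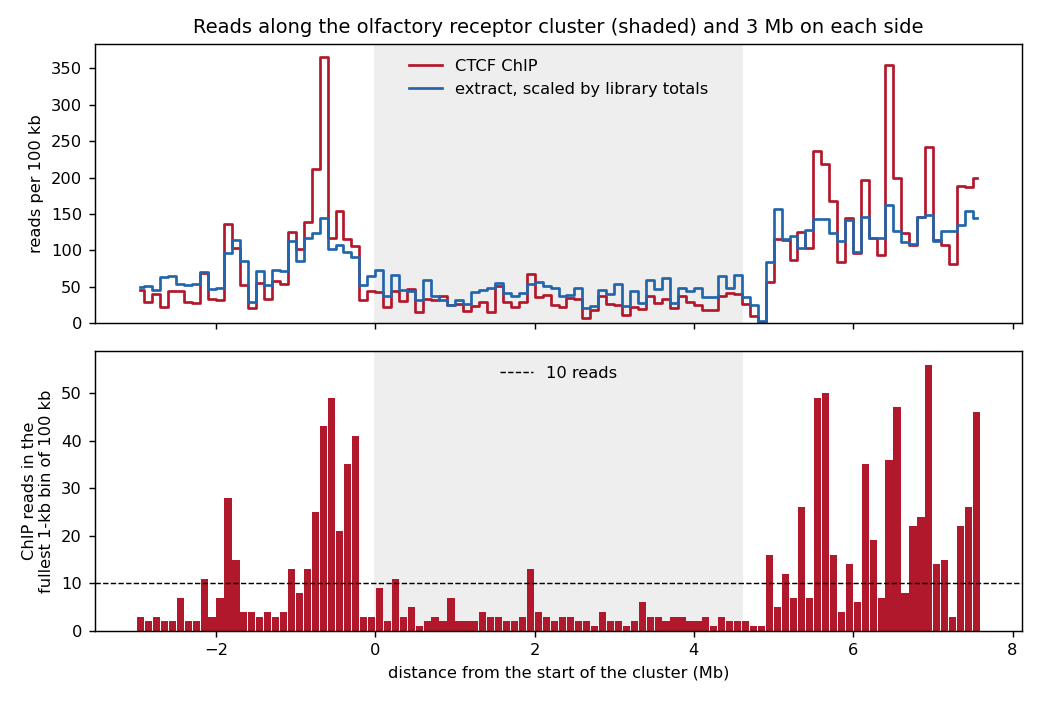
Reads in 100-kb pieces along the cluster (shaded) and 3 Mb on each side, by distance from the start of the cluster in Mb. The upper panel gives ChIP reads and extract reads scaled by library totals, and the lower panel the ChIP reads of the fullest 1-kb bin of each piece. Inside the shaded stretch the fullest bin reached 13 reads, while bins of 41 and 49 reads stand shortly before it.

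Low signal reached past both bounds of the chosen stretch, and the nearest strong bins lay 215 kb before it and 375 kb after it. Where the receptor genes end in mm8 was not determined, so the flanks may hold receptor genes too. In 46 pieces of 100 kb inside the cluster, ChIP reads numbered 7 to 68 with a median of 30. In the 10 pieces of the 1 Mb before it they numbered 32 to 365 with a median of 116.5, and in the 10 pieces of the 1 Mb after it 2 to 237 with a median of 95.5. Extract reads were also fewer inside, with a median of 89 per piece, against 198.5 before and 216.5 after. The pieces next to the bounds were within or below the range inside. The last 2 before the start held 32 and 45 ChIP reads and the first inside 43, while the last inside held 40 and the next 3 beyond the end 26, 10 and 2. Extract reads numbered 104 and 129 in the last 2 before the start, and 72, 51 and 7 in the 3 beyond the end. With 7 extract reads, the last of these is too thin for its ChIP count to be read. The 1 Mb before held 27 strong bins and the 1 Mb after held 7.

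The last 6 strong bins before the cluster held 10 to 41 ChIP reads. The fullest of them, chr2:85047001-85048000, lay 252 kb before the start and held 41 ChIP reads, 18 plus-strand and 23 minus-strand, beside 5 extract reads. This was a 16.2-fold excess (6.42 to 52.6) with the extract scaled by library totals. The nearest, chr2:85084001-85085000, lay 215 kb before the start and held 10 ChIP reads and 2 extract reads. On the other side the first strong bin, chr2:90275001-90276000, lay 375 kb beyond the end. It held 16 ChIP reads and 1 extract read, a 31.7-fold excess (4.92 to 1327). Its wide interval comes from the single extract read. Inside the cluster, both strong bins also held at least 5 times the scaled extract reads. Over chromosome 2, 1.21% of bins met both limits.

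The stronger of the 2 was chr2:87281001-87282000, 1981 kb from the start of the cluster. It held 13 ChIP reads, or 5.48 RPM (reads per 1000000 of the library, 2.92 to 9.38). With 3 extract reads in the bin, the excess was 8.57-fold (2.36 to 46.9). The 13 reads comprised 8 plus-strand and 5 minus-strand reads, and 10 of them (76.9%) fell within 200 bp once moved. The median minus-strand 5′ end lay 261 bp downstream of the median plus-strand end. Plus-strand ends upstream of minus-strand ends are the usual arrangement around a point of binding.

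The other strong bin, chr2:85526001-85527000, lay 226 kb from the start and held 11 ChIP reads, or 4.64 RPM (2.32 to 8.30). It also held 3 extract reads, so that the excess was 7.25-fold (1.92 to 40.5). Its 5 plus-strand and 6 minus-strand reads were more scattered. The moved reads spanned 552 bp, 6 of them (54.5%) fell within 200 bp, and the strand offset was 323 bp. The intervals of the excess in the 2 bins overlap widely, so these counts do not separate them in strength.

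**Figure D2:**
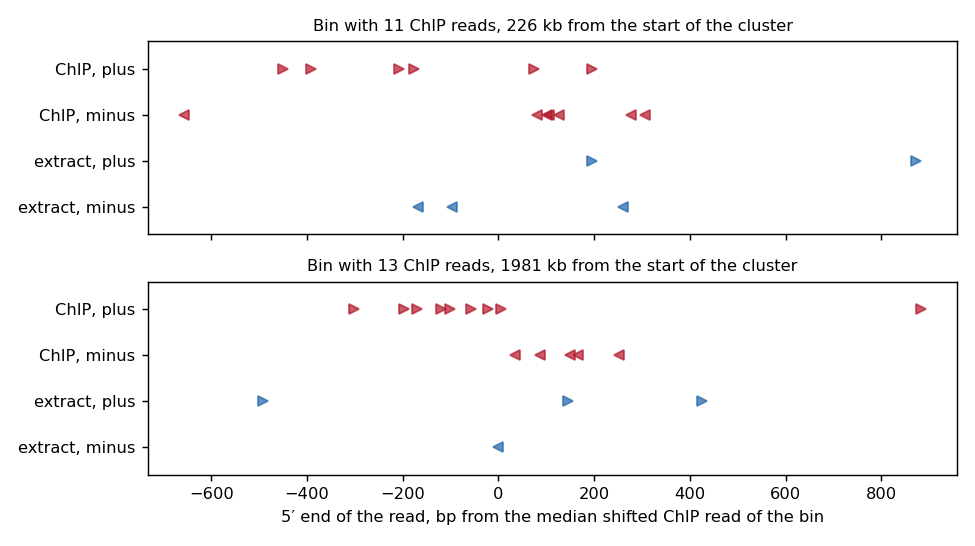
5′ ends of reads around the 2 strong bins of the cluster, in bp from the median moved ChIP read, with 1 row per library and strand and 1 triangle per read pointing in the read's direction. In the bin with 13 ChIP reads, plus-strand ends lie to the left of minus-strand ends in a compact group, and in the bin with 11 the ends are spread more widely.

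The form of both cluster bins was within the range of strong bins of like size elsewhere on the chromosome. The 578 bins with 10 to 13 ChIP reads in the 35 windows had a median of 76.9% of their reads within 200 bp (5th to 95th percentile 50 to 92.3) and a median of 3 extract reads. In the 529 of them with at least 3 reads on each strand the offset had a median of 212 bp (71.2 to 372). Both cluster bins lay inside these ranges. The bin with 11 ChIP reads lay in their outer parts, at 54.5% (25th percentile 69.2) and 323 bp (75th percentile 265.5). The surroundings of the 2 cluster bins did differ. The 11 kb around them held 12 and 13 extract reads, below the 5th percentile of 15 and the median of 27 in the bins of like size.

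Below the threshold, the tail of weaker bins was also thin. A bin of 5 or more ChIP reads was found 7 times in the cluster (0.152%), against 2.49% of all bins on chromosome 2. The 35 windows held a median of 92 such bins, and the lowest count was 10. Just under the threshold stood chr2:85362001-85363000 with 9 ChIP reads and 1 extract read. No cluster bin held exactly 10. The bin chr2:86265001-86266000 held 7 ChIP reads and no extract read, so its excess was computed against the 3 counts that a count of 0 allows and came to 4.62-fold. Bins of 6 reads were chr2:87283001-87284000, which lies 1 bin beyond the neighbour of the strongest bin, and chr2:88647001-88648000. A bin of 5 reads with 3 extract reads, chr2:85748001-85749000, had its plus-strand ends downstream of its minus-strand ends, an offset of -58.5 bp. No bin held 20 or more reads, and 3 counts in 4600 bins would be a share of 0.0652%. In the windows 0.632% of bins held that many.

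**Figure D3:**
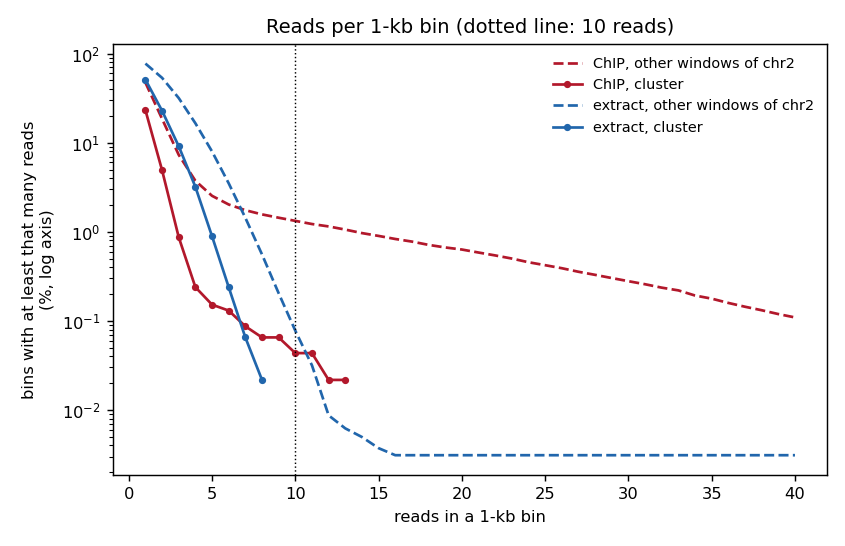
Share of 1-kb bins (percent, log axis) with at least the number of reads on the horizontal axis, for ChIP and extract in the cluster (solid) and in the other windows of chromosome 2 (dashed). The ChIP line of the windows flattens beyond about 5 reads, where strong bins make up the tail, while that of the cluster falls to 0.0435% at 10 reads and ends at 13.

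A second count of sites, made in 200-bp windows against the local extract over the whole genome, gave 5 regions in the cluster. Only windows holding a ChIP read were tested, 6352508 in all. To pass, a window needed an adjusted p (exact Poisson test, Benjamini-Hochberg over the tested windows) under 0.001. Its ChIP reads also had to reach 5 times the number expected. Of the tested windows 2.95% passed, which is not a share of all windows of the genome. The tested windows were chosen by the count under test, so the adjustment does not cover windows without a ChIP read. Other windows of 4.6 Mb on chromosome 2 held a median of 56 regions, from 5 to 197, and 1 of the 35 equalled the cluster. The median region held 7 ChIP reads in the cluster and 15 in the windows. The fullest, chr2:87281051-87281450, held 12 ChIP reads and 1 extract read, and its best window had 33.0 times the expected count. The region chr2:85526601-85526800 held 6 ChIP reads and 0 extract reads, with 14.8 times the expected count in its window. These 2 lie in the strong bins. The regions outside strong bins were chr2:85362051-85362400 with 8 ChIP reads, chr2:86265601-86265900 with 7 and chr2:88647101-88647400 with 5. The region of 7 reads had 1 plus-strand and 6 minus-strand reads.

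The strong bins left long stretches of the cluster without any. From position 87282001 the cluster ran 2.618 Mb to its end with 745 ChIP reads and no bin above 6 reads. Followed past the end to the next strong bin, this gap measured 2.993 Mb and was the fourth longest of 2090 on chromosome 2. The longest, chr2:39217001-43495000, measured 4.278 Mb and the third held 0.0392 extract reads per kb, too few to call bins. The stretch between the 2 strong bins, chr2:85527001-87281000, measured 1.754 Mb and was the ninth longest. Over chromosome 2 the median gap was 29 kb, and 21 gaps were longer than 1 Mb. The first 226 kb of the cluster were likewise without a strong bin, with 74 ChIP and 243 extract reads.

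The extract was thin in the cluster too, which limits how the ChIP counts can be read. It held 4023 extract reads, or 0.875 per kb, against a median of 1.88 and a lowest value of 1.23 in the 35 windows. No extract read fell in 48.9% of the cluster's bins, and in 7.80 to 38.8% of bins in the windows. ChIP reads were lower still, at 1374 or 0.299 per kb, against a median of 0.902 and a lowest value of 0.410. In both libraries all 35 windows lay above the cluster. Relative to the pooled windows, the extract density was 0.453 times (0.439 to 0.467) and the ChIP density 0.289 times (0.274 to 0.304), so the ChIP shortfall was the larger. Both lanes of the extract showed it, with 848 and 869 RPM in the cluster against 579 RPM in the ChIP. Some receptor genes are close copies of each other, and reads from repeated sequence may be dropped in alignment. The alignment filter is not given in the sources used here, and the part of alignability in these densities was not tested.

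Relative to extract reads the cluster was still low. It held 0.497 strong bins per 1000 extract reads, against a median of 5.53 in the windows. In 34 of the 35 windows the value was higher, and the exception was 0.308. Pooled, the windows held 13.8 times as many strong bins per extract read (3.82 to 114).

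Bins were also compared at equal extract counts. Among bins with no extract read, 0 of 2250 in the cluster were strong, which allows a share of up to 0.133% by 3 counts and 0.164% by the exact interval, against 0.403% (0.340 to 0.473) of 36496 bins in the windows. With 1 extract read, 0 of 1300 were strong, which allows up to 0.231% by 3 counts and 0.283% by the exact interval, against 0.849% (0.759 to 0.946). With 2 extract reads, 0 of 630 were strong, which allows up to 0.476% and 0.584%, against 1.26% (1.14 to 1.38). Up to 2 extract reads, therefore, the cluster lay below the windows by more than counting error. Both strong bins of the cluster were among its 273 bins with 3 extract reads (0.733%, 0.0888 to 2.62), against 1.58% in the windows, a difference not detectable at this depth. With 4 reads, 0 of 106 allows up to 2.83% and 3.42%, against 2.41% in the windows, which is not detectable either. The windows' shares applied to the cluster's own mix of extract counts would give 36.5 strong bins. This is 18.2 times the 2 observed (5.05 to 151, counting error of the 2 only). A bin's own extract count of a few reads carries counting error too, so bins with equal counts need not be equally alignable. The part of this in the difference was not tested.

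**Figure D4:**
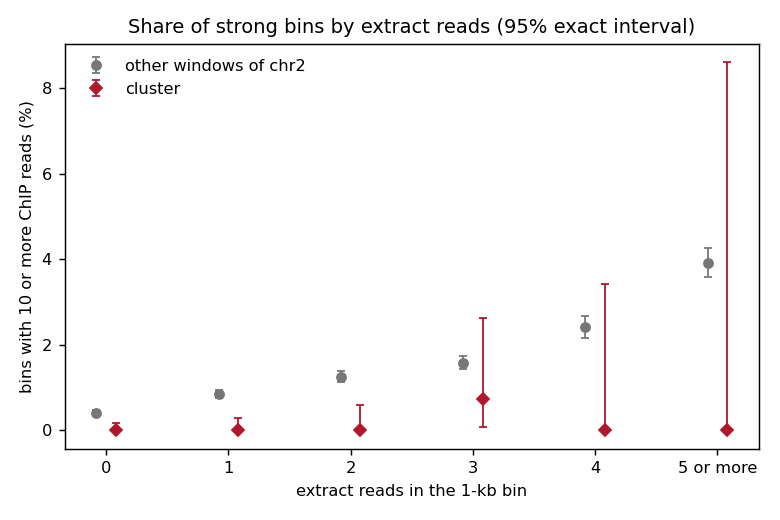
Percent of 1-kb bins with 10 or more ChIP reads, by the number of extract reads in the bin, in the cluster and in the other windows of chromosome 2, with exact 95% intervals. The cluster is at 0 except at 3 extract reads, and its intervals lie below the windows' for 0, 1 and 2 extract reads.

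Outside the strong bins, the ChIP background of the cluster was low but not apart from other poor stretches. With libraries scaled by their totals, ChIP reads stood at 0.665 times the extract there (0.625 to 0.707), from 1350 ChIP and 4017 extract reads. The pooled windows gave 0.778 (0.773 to 0.784), an interval that does not overlap. Single windows ranged from 0.632 to 0.880 with a median of 0.755, and 2 of the 35 lay below the cluster. These ratios are under 1 in part by construction, since reads in strong bins count in the ChIP total. Scaled by the reads outside strong bins over the genome, the cluster's ratio was 0.892.

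Windows with fewer strong bins had a lower background ratio (Pearson r = 0.803, Spearman rho = 0.869 over 35 windows, which share both libraries). Extract density rose with both, with r = 0.79 for the ratio and 0.932 for strong bins. Reads of sites too weak to reach 10 per bin are part of this background. The base composition of the windows and of the cluster in mm8 was not measured.

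**Figure D5:**
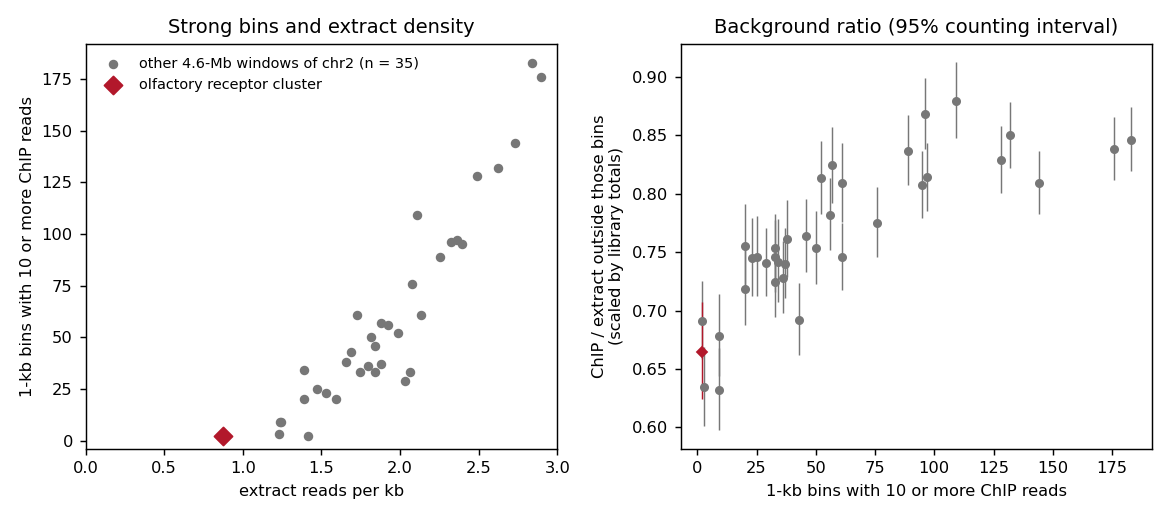
The 35 other windows of chromosome 2 (grey) and the cluster (red diamond). On the left, strong bins against extract reads per kb, where the cluster has the lowest extract density and 2 strong bins. On the right, ChIP over extract outside strong bins with 95% counting intervals against strong bins, where the cluster at 0.665 lies among the windows with fewest strong bins.

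The cluster was also set beside the 4 windows with the fewest strong bins. From 43.9 to 48.5 Mb there were 2 strong bins, from 39.3 to 43.9 Mb 3, and from 94.5 to 99.1 Mb and from 53.1 to 57.7 Mb 9 each. The count in the cluster did not differ from any of these beyond counting error, and against a count of 9 the ratio was 0.222 (0.0234 to 1.07). In the same order, their background ratios were 0.691 (0.659 to 0.725), 0.634 (0.601 to 0.669), 0.632 (0.597 to 0.668) and 0.678 (0.644 to 0.714), and each interval overlaps that of the cluster. The extract density differed. The cluster held 0.619 (0.595 to 0.644), 0.709 (0.681 to 0.739), 0.707 (0.679 to 0.736) and 0.702 (0.675 to 0.731) times their extract reads. Per 1000 extract reads these windows held 0.308, 0.529, 1.58 and 1.57 strong bins, against 0.497 in the cluster. The fullest bin of these windows held 15, 39, 65 and 16 ChIP reads, against 13 in the cluster. None of the 35 windows of chromosome 2 had a lower maximum than the cluster.

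Along the cluster the densities of both libraries varied, while their ratio did not differ beyond counting error. In 5 pieces of 920 kb, ChIP density ranged from 0.264 to 0.336 reads per kb and extract density from 0.778 to 0.938. The background ratio ranged from 0.599 (0.517 to 0.692) in the fourth piece to 0.724 (0.630 to 0.830) in the third. All 5 intervals of the ratio overlap. In pieces of 100 kb the extract ranged from 43 to 144 reads. ChIP reads exceeded the scaled extract in 3 of the 46 pieces of 100 kb. The share of plus-strand reads was 51.5% in the ChIP (48.8 to 54.2) and 50.3% in the extract (48.7 to 51.8), so neither library was tilted to a strand. The bin with the most extract reads, chr2:85303001-85304000, held 8 of them and 2 ChIP reads, and the most crowded bin of the windows held 155.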

How the data were processed

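The deposited files hold 1 line per aligned read of 36 bases with its chromosome, start, end and strand, in no unit other than positions in bp. Per the submitters' processing notes the build was mm8. The sources used here name no aligner and no filter on reads. Starts were read as counted from 0. On chromosome 2 no position and strand occurred more than once (0 repeated reads in either library), so the number of PCR copies is unknown and counts have a ceiling. Libraries were scaled by their totals (ratio 0.505). Windows of 4.6 Mb were tiled outward from both ends of the cluster, and 3 in which over 10% of 10-kb bins lacked extract reads were left out. Intervals are exact (Poisson, or Clopper-Pearson for shares and ratios). Of the 200-bp windows, every 50 bp, only those with a ChIP read were tested. They were tested against the largest of the genome average and the scaled extract in 1, 5 and 10 kb. Passing windows were joined within 200 bp. The scripts were tested on simulated data. All strong bins were to be named if 20 or fewer, with the longest stretches between them and the bin with most extract reads. Other bins and windows were named after their values were seen. The stretch was set by its position and not by its read counts. Earlier results of these data were known when it and the lists were chosen. Python 3.11.15, numpy 2.4.6, scipy 1.17.1 and pandas 2.3.3 were used.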

Additional observations from a re-analysis of the deposited data

How the results depend on the processing

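The count of strong bins stayed at 2 with no shift, a shift of 75 bp, the grid moved by 500 bp, and a required excess of 5 times the scaled extract (with it, 1.21% of chromosome 2 bins were strong). It was 4 at a minimum of 7 reads, 0 at 20, and 1 with the bounds drawn in by 300 kb; at a minimum of 5, chosen after seeing the data, it was 7. At 20 the density relative to the windows was 0, and so was the number per extract read. The background ratio was 0.892 with the extract scaled by reads outside strong bins, against 0.665. Extract density relative to the windows' median was 0.485 with windows moved by 2.3 Mb and 0.442 with the bounds drawn in, against 0.466. Regions in 200-bp windows numbered 13 at an adjusted p under 0.05, 1 at 1e-06, 8 without the extract, and 3 with the bounds drawn in (added after seeing the data), against 5 (exact Poisson test, Benjamini-Hochberg); drawn-in bounds cover a shorter stretch and stricter limits pass fewer bins or windows, and otherwise the cause was not tested. The other 47 of 60 alternative values stayed within 1.5 times the count or within the counting interval, and the 3 ratios to the windows' medians were below 1 under every setting run. No paired analysis was possible because there is 1 ChIP and 1 extract library, and leaving out a replicate was impossible too. Depth limits weak sites and bins with 3 or more extract reads most.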

Other observations

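Over all autosomes, 474 windows of 4.6 Mb other than the cluster held a median of 44 strong bins and a highest count of 206. In 8 of them the count was 2 or lower. Those 8 held 4616 to 7814 extract reads, against 4023 in the cluster. Per 1000 extract reads they held 0 to 0.433 strong bins, against 0.497 in the cluster. With counts no higher and more extract reads, each had to come out below the cluster, so this order shows nothing further. None of the 474 held fewer ChIP reads than the cluster's 1374, and the lowest was 1403, in chr1:46000001-50600000. This window and chr1:101200001-105800000, also among the 8, had background ratios of 0.434 and 0.439, against 0.665 in the cluster. Both are below the lowest ratio in the windows of chromosome 2, 0.632, and the cause was not tested. Their read counts are therefore less comparable with those of the cluster.

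Extract reads were fewer than the cluster's 4023 in 2 of the 474 windows. The window chr6:128800001-133400000 held 3670 extract reads and 20 strong bins, and chr17:18400001-23000000 held 3813 and 17. Both counts are below the median of 44. Per 1000 extract reads these came to 5.45 and 4.46 strong bins, against 0.497 in the cluster. Both windows were picked after their values were seen, and their sequence content was not analysed here.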
